A study of Mus musculus with 6 samples.

Results

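Replacement histones are made outside the S phase as well as in it, and their genes lie outside the large histone gene clusters. The 10 genes described here were chosen by name as histone genes of this kind plus the linker histones that lie outside the clusters, and all 10 were found among the 17060 genes of the deposited tables. They were the H3.3 genes H3f3a and H3f3b, the H2A.Z genes H2afz and H2afv, the H2A genes H2afx and H2afj, the macroH2A genes H2afy and H2afy2, and the linker histone genes H1f0 and H1fx. BM lineage-negative cells of WT mice were grown in EPO-containing medium for 48 hours, either with the solvent DMSO or with 10 μM NUP-17d, a small molecule that the study developed as an inhibitor of Plek2 (pleckstrin-2), and polyadenylated RNA was sequenced from 3 cultures of each group. EPO, the hormone that drives red cell formation, was present in all 6 cultures, and the stage of differentiation of the cells in each culture is not given by the labels. The cultures started from a mixed progenitor pool and were not sorted before RNA extraction, there was 1 dose and 1 time point, and no culture without Plek2 was included here. The labels do not say whether the 3 cultures of a group came from separate mice, so the P values measure only the spread between these cultures.

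DNA is wound around octamers of core histones, and linker histone H1 binds where the DNA enters and leaves. Most histone protein is supplied in S phase by the clustered genes, whose mRNAs usually end in a stem-loop in place of a poly(A) tail, whereas replacement variants mostly have polyadenylated mRNAs and are exchanged into chromatin throughout the cell cycle. H3.3 marks active genes and sites of nucleosome turnover, H2A.Z flanks promoters, H2A.X is phosphorylated around DNA breaks, macroH2A carries a large extra domain and is associated with repressed chromatin, and H1.0, the product of H1f0, accumulates in cells that leave the cycle. Chromatin in erythroblasts condenses before the nucleus is lost, which makes the histone supply of these cells of interest.

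The expected counts summed to between 20278433 and 20419018 in DMSO cultures and to between 20076409 and 20170197 in NUP-17d cultures, so depth was nearly equal. Composition was not: hemoglobin genes took 18.3% to 20.3% of the counts with DMSO and 11.8% to 13.1% with NUP-17d. Values are therefore given as CPM, expected counts scaled to a common library size, with the TMM (trimmed mean of M values) factors that correct for composition, under which the median log2 fold change of the 12306 tested genes was 0.014. With library totals as the only scaling that median was 0.28, which shifts the 10 histone genes upward by nearly the same amount. All 14 erythroid markers tested were called lower with NUP-17d with TMM and 12 of them with totals only, and the markers were abundant in all 6 cultures, which the labels call erythroblasts. In bulk RNA, fewer cells of a type and less RNA per cell cannot be told apart.

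Of the 10 histone genes, all of which passed the filter on low counts, 3 were called lower with NUP-17d at an adjusted P under 0.05 (H3f3b, H3f3a and H2afz) and 1 higher (H1fx). Among all genes tested by edgeR, 35.3% were called, 18.9% lower and 16.4% higher, so the share of called histone genes was close to the background. For the same 4 genes the CPM ranges of the groups were separate, which held for 46% of all tested genes, 23.2% lower and 22.8% higher with NUP-17d. The median log2 fold change of the 10 genes was 0.025. With totals only, 8 of the 10 were called higher and 1 lower, where 68.7% of all tested genes were called higher and 5.34% lower, and H3f3b was the 1 gene still called lower. By limma on log2(FPKM + 1), which also leaves composition uncorrected, the counts were again 8 and 1, beside 74.9% and 5.68% of all genes. DESeq2, which corrects for it, called the same 3 genes lower and none higher, beside 15% and 9.63% of all genes.

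**Figure D1:**
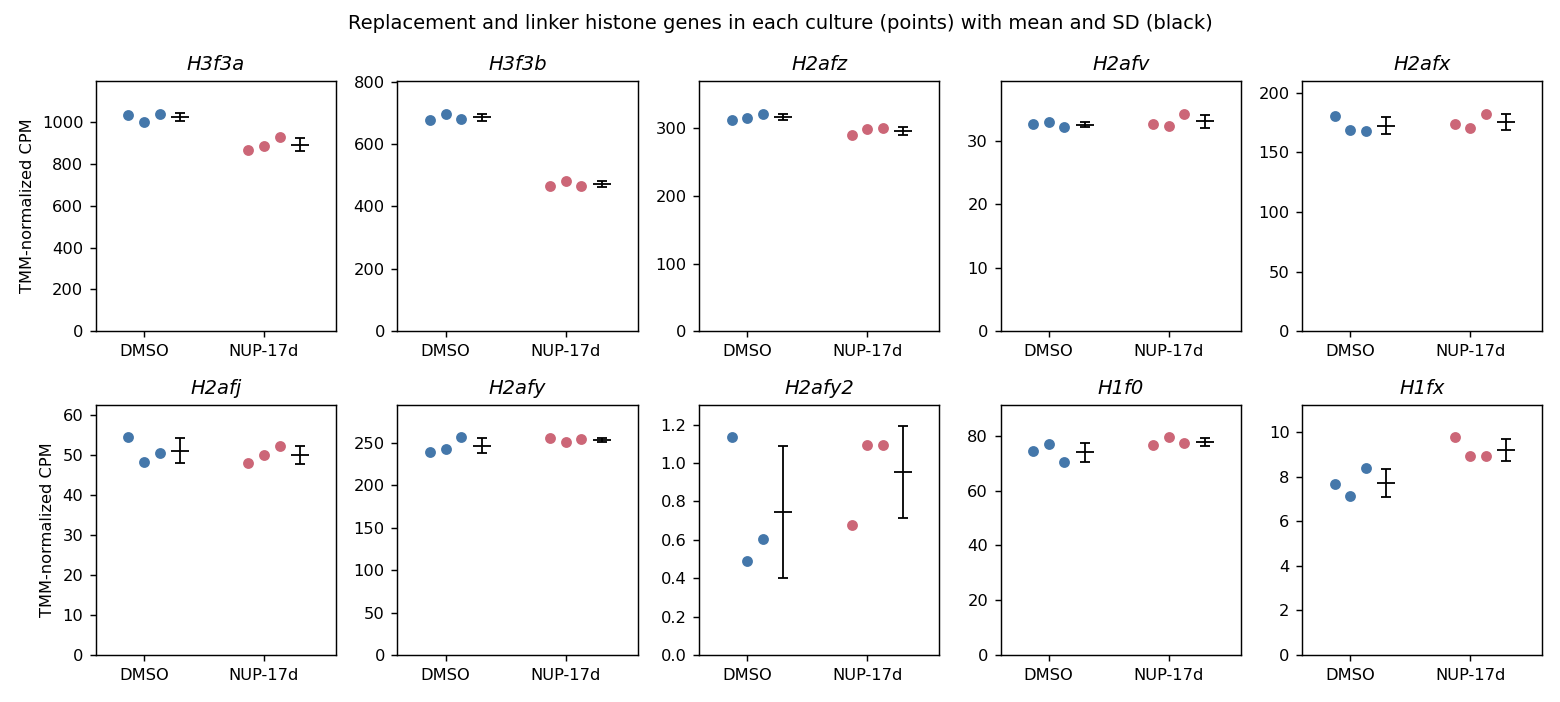
TMM-normalized CPM (y axis, from 0, a separate scale in each panel) of the 10 histone genes in each DMSO and NUP-17d culture, with the mean and SD in black (n = 3 cultures). H3f3b stood at 677 to 697 with DMSO and at 466 to 481 with NUP-17d, the widest gap between groups relative to their spread, and H3f3a and H2afz lay lower with NUP-17d here but higher with library totals as the only scaling.

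H3f3a and H3f3b code for the same H3.3 protein from separate chromosomes, and both mRNAs were among the more abundant of the group. H3f3b (Entrez 15081, chr11:116021961-116026039, GRCm38.p6) had the largest fall of the 10 genes. Its CPM was 677, 697 and 681 in the DMSO cultures and 466, 481 and 466 in the NUP-17d cultures. Every NUP-17d culture lay far below every DMSO culture, and the cultures of a group differed little. The mean went from 685 ± 10.8 to 471 ± 8.94 (SD, n = 3 each), a log2 fold change of -0.54 (SE 0.034, 95% CI -0.61 to -0.47, adjusted P = 7.67e-13 by edgeR), so that the mRNA fell by 31.2%. Of all tested genes, 3.72% had a larger fall. H3f3b was called lower in 16 of 16 alternative analyses, with log2 fold changes from -0.56 to -0.27, the weakest values being those without correction for composition.

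H3f3a (Entrez 15078, chr1:180802560-180813605) is the more highly expressed H3.3 gene. Its CPM was 1032, 1003 and 1040 with DMSO and 865, 886 and 927 with NUP-17d. The groups did not overlap, but the gap was much narrower than for H3f3b. The mean went from 1025 ± 19.7 to 893 ± 31.7 (SD, n = 3), a log2 fold change of -0.20 (SE 0.036, 95% CI -0.27 to -0.13, adjusted P = 7.16e-05 by edgeR), and the sign turned, to 0.068, when only totals were used (adjusted P = 0.0484 by edgeR). Relative to the median of all tested genes the value was -0.21 under both scalings. The expected counts of H3f3a were not whole in all 6 cultures, so part of its reads was divided between genes by the authors' counting, and its exons overlap noncoding genes of the opposite strand, whereas H3f3b has no such overlap and 1 culture with a count that was not whole.

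The ratio of the genes within a culture does not depend on how libraries are scaled. H3f3a had 1.52, 1.44 and 1.53 times the expected count of H3f3b in the DMSO cultures and 1.86, 1.84 and 1.99 times in the NUP-17d cultures. All NUP-17d ratios lay above all DMSO ratios. The mean log2 ratio went from 0.58 ± 0.049 to 0.92 ± 0.061 (SD, n = 3), a difference of 0.34 or a 1.27-fold higher ratio. A 2-sided exact permutation test gave P = 0.1, the smallest that 3 against 3 cultures allow, and 0.25 after adjustment over the 5 pairs of related genes compared. Leaving out each culture in turn kept the difference between 0.31 and 0.36.

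Per length, with FPKM divided by the TMM factor, H3f3b supplied 26.0%, 27.2% and 26.0% of the summed H3.3 mRNA in the DMSO cultures and 22.4%, 22.6% and 21.2% in the NUP-17d cultures. The share was lower in each NUP-17d culture than in any DMSO culture, and H3f3a supplied most H3.3 mRNA in both groups. On this scale the summed H3.3 level was 1293 ± 13.2 in DMSO and 1067 ± 28.6 in NUP-17d cultures (SD, n = 3, exact permutation P = 0.1, adjusted over the 3 proteins summed 0.15), a log2 difference of -0.28 that shrank to -0.011 with FPKM as deposited.

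The stretches below are from the 250 bases before a RefSeq transcript start of each H3.3 gene (GRCm38.p6, both genes on the minus strand, letters read along the gene). For H3f3a this start is the outer end of the span given above. For H3f3b it lies inside the span given above, so the windows differ in their position relative to the gene. The stretches are shown side by side for these sister genes. They were picked after the values had been seen, and capitals mark the motif.
H3f3b CCAAT boxes, chr11:116024690-116024718: CCAATcctgaagcaattgtaacagCCAAT
H3f3b TATA box, chr11:116024521-116024536: gtctcTATAAAtatgg
H3f3b cyclic AMP response element cores, chr11:116024543-116024565: ttctgTGACGcacTGACGcagcg
H3f3a CCAAT box on the other strand, chr1:180813620-180813634: gtgtgATTGGctgga
H3f3a GC boxes, which overlap each other, chr1:180813735-180813754: ggaatGGGCGGGCGGcgcgc

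H3f3b had 4 CCAAT matches, 1 TATAAA match and 2 TGACG matches in its window and none of GGGCGG. The H3f3a window had 1 CCAAT and 4 GGGCGG matches and none of TATAAA or TGACG. Base composition differed as well, with 54% G and C in the H3f3b window and 77.2% in the H3f3a window. The median over all 32851 RefSeq windows was 52.4%. These contrasts set a start inside the H3f3b span against the outer start of H3f3a. In GENCODE M21 the H3f3b stretches and the CCAAT stretch of H3f3a lie in an exon of a longer transcript of the same gene, so the windows are annotated as transcribed in part.

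Windows were at hand for 9 of the 10 genes, H2afx being the other. Motifs were searched on both strands. CCAAT occurred in 5 of the 9 windows and in 33.8% of all windows, GGGCGG in 6 and 32.7%, CCNCNCCC in 7 and 45.9%, TATAAA in 1 (H3f3b) and 12.4%, TGACG in 1 (H3f3b) and 17.8%, and CACGTG in 1 (H2afz) and 6.02%. No match was found in the 9 windows for the GATA motif AGATAA (9.99% of all windows), for TTTNNCGC (4.28%), for TTTNGCGC, which TTTNNCGC contains (1.13%), or for TGACGTCA, which contains TGACG (1.55%). A match is a run of letters and not a measured binding site.

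H2afz and H2afv code for near-identical H2A.Z proteins, of which H2afz is the dominant gene here. H2afz (Entrez 51788, chr3:137864487-137866922) had a CPM of 313, 316 and 322 with DMSO and 290, 299 and 300 with NUP-17d. The highest NUP-17d culture lay just below the lowest DMSO culture. The mean went from 317 ± 4.64 to 296 ± 5.81 (SD, n = 3), a log2 fold change of -0.096 (SE 0.034, 95% CI -0.17 to -0.027, adjusted P = 0.0275 by edgeR), which turned to 0.17 with totals only (adjusted P = 0.000121 by edgeR). The call under TMM was held in 3 of 6 analyses that left out a culture. It was lost without DMSO culture 2, without DMSO culture 3 and without NUP-17d culture 1, where the adjusted P by edgeR reached 0.11 at most.

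H2afv (Entrez 77605, chr11:6427226-6444511) had a CPM of 32.7, 32.9 and 32.1 with DMSO and 32.6, 32.4 and 34.3 with NUP-17d. The groups overlapped, and a NUP-17d culture was the highest. Its log2 fold change was 0.023 (95% CI -0.079 to 0.13, adjusted P = 0.752 by edgeR), and 0.29 with totals only. The ratio of H2afz to H2afv, which needs no scaling, was 9.57, 9.60 and 10.01 with DMSO and 8.88, 9.23 and 8.75 with NUP-17d, with no overlap. In log2 units it was 3.28 ± 0.037 and 3.16 ± 0.039, a difference of -0.12 (exact permutation P = 0.1, adjusted 0.25). H2afv gave 6.24 ± 0.14% of the summed H2A.Z mRNA per length with DMSO and 6.74 ± 0.18% with NUP-17d.

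H2A.X, the variant phosphorylated at DNA breaks, and H2A.J, an H2A variant with a divergent tail, each come from 1 gene. H2afx (Entrez 15270, chr9:44334715-44336077) had a CPM of 180, 169 and 168 with DMSO and 174, 170 and 182 with NUP-17d. The groups overlapped, and the log2 fold change was 0.026 (95% CI -0.053 to 0.10, adjusted P = 0.633 by edgeR). With totals only it was 0.29 and called higher (adjusted P = 1.81e-07 by edgeR). H2afj (Entrez 232440, chr6:136808248-136810074) had a CPM of 54.5, 48.2 and 50.7 with DMSO and 48.0, 50.01 and 52.3 with NUP-17d, and again the groups overlapped. Its log2 fold change was -0.030 (95% CI -0.13 to 0.071, adjusted P = 0.676 by edgeR) and turned to 0.24 with totals only (adjusted P = 0.000163 by edgeR). With TMM, a rise of up to 0.10 for H2afx and a fall to -0.13 for H2afj lay within the intervals. Both genes had counts that were not whole in all 6 cultures. The ratio of H2afx to H2afz was 0.577, 0.534 and 0.521 with DMSO and 0.599, 0.568 and 0.607 with NUP-17d, with overlap between groups (log2 difference 0.12, exact permutation P = 0.2, adjusted 0.33).

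macroH2A comes almost entirely from H2afy in these cells. H2afy (Entrez 26914, chr13:56073622-56135626) had a CPM of 240, 243 and 257 with DMSO and 256, 251 and 255 with NUP-17d. A DMSO culture was the highest, and the groups overlapped (log2 fold change 0.040, 95% CI -0.032 to 0.11, adjusted P = 0.4 by edgeR). With totals only the log2 fold change was 0.31 and H2afy was called higher (adjusted P = 1.11e-07 by edgeR). H2afy2 (Entrez 404634, chr10:61738640-61784604) was near the limit of detection, with expected counts of 20.5, 9.33 and 11.3 with DMSO and 15.0, 24.4 and 23.8 with NUP-17d. At this depth its log2 fold change of 0.37 had a 95% CI from -0.30 to 1.03 (adjusted P = 0.41 by edgeR), so a change was not detectable. Exons of the protein-coding gene Aifm2, on the opposite strand, overlap those of H2afy2. H2afy2 made up a mean of 0.313% of the summed macroH2A mRNA per length with DMSO and 0.389% with NUP-17d, in 6 cultures that ranged from 0.21% to 0.484%.

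H1f0 codes for H1.0, the replacement linker histone of cells leaving the cycle. H1f0 (Entrez 14958, chr15:79028212-79030504) had a CPM of 74.5, 77.2 and 70.4 with DMSO and 76.8, 79.5 and 77.3 with NUP-17d. The groups overlapped at the low end of the NUP-17d cultures. The mean went from 74.0 ± 3.43 to 77.9 ± 1.40 (SD, n = 3), a log2 fold change of 0.073 (SE 0.041, 95% CI -0.012 to 0.16, adjusted P = 0.179 by edgeR), and the gene was called higher only where composition was not corrected.

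H1fx codes for H1.10, a divergent linker histone expressed throughout the cell cycle. H1fx (Entrez 243529, chr6:87980421-87981482) had a CPM of 7.68, 7.12 and 8.38 with DMSO and 9.77, 8.92 and 8.94 with NUP-17d. Every NUP-17d culture lay above every DMSO culture, the nearest values being those of DMSO culture 3 and NUP-17d culture 2. The mean went from 7.73 ± 0.63 to 9.21 ± 0.48 (SD, n = 3), a rise of 19.2% and a log2 fold change of 0.25 (SE 0.097, 95% CI 0.054 to 0.45, adjusted P = 0.0431 by edgeR). This call was close to the threshold: DESeq2 gave an adjusted P of 0.214, and the call was held in 1 of 6 analyses that left out a culture, the one without DMSO culture 3, with adjusted P values by edgeR from 0.0313 to 0.183. An antisense gene overlaps the exons of H1fx, and the strand setting of the counting is not given in the sources used here.

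The linker histone mRNAs were also set against the 6 linker genes of the Hist1 cluster, per length. H1f0 made up 39.9%, 41.2% and 38.1% of the summed linker mRNA in the DMSO cultures and 45.1%, 46.6% and 43.7% in the NUP-17d cultures. H1fx made up 8.56%, 7.89% and 9.44% with DMSO and 11.9%, 10.9% and 10.5% with NUP-17d. Both shares were higher in each NUP-17d culture than in any DMSO culture, independent of scaling. A share depends on the other linker genes as well, and H1f0 itself was not called under TMM. With FPKM divided by the TMM factor, the summed linker level was 79.5 to 80.6 with DMSO and 73.5 to 76.2 with NUP-17d. Hist1h1c, the linker gene of the cluster with the most reads, made up 44.2%, 46.2% and 44.8% with DMSO and 39.2%, 39.3% and 42.4% with NUP-17d. Libraries made from polyadenylated RNA capture only part of cluster histone mRNA, so these shares describe the polyadenylated mRNA and not the histone supply. The ratio of H1f0 to H1fx overlapped between groups (log2 difference -0.18, exact permutation P = 0.3, adjusted 0.375), and leaving out a culture moved the difference from -0.28 to -0.092.

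**Figure D2:**
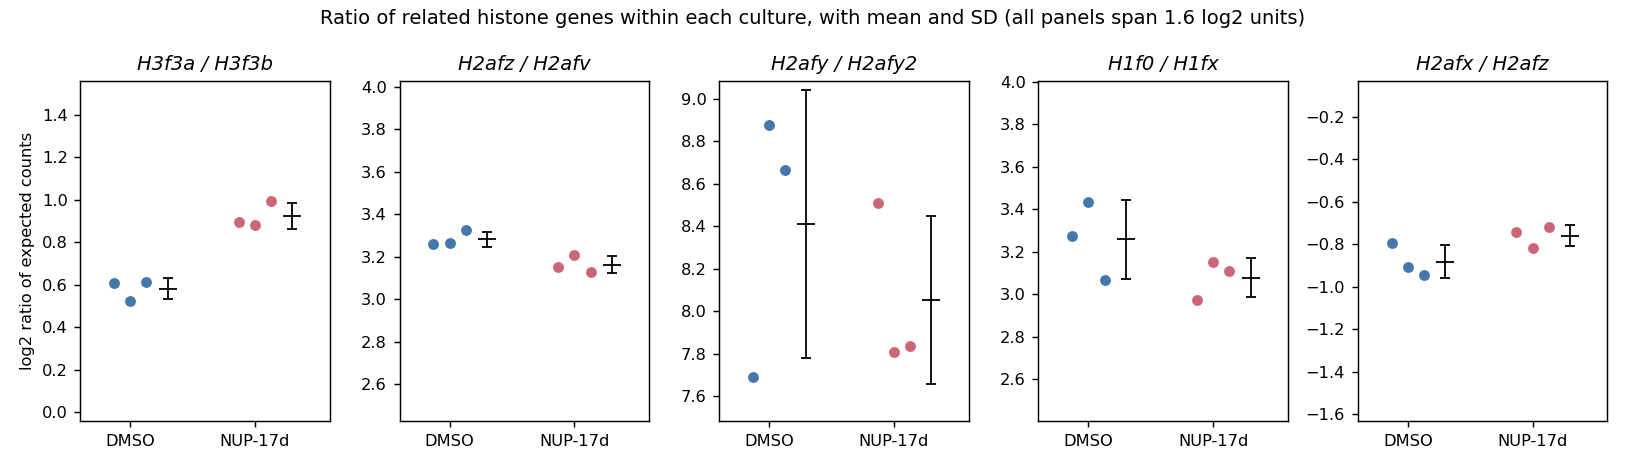
Log2 ratio of the expected counts of related histone genes (y axis, 1.6 log2 units in each panel) in each DMSO and NUP-17d culture, with mean and SD in black (n = 3). The H3f3a to H3f3b ratio was higher in all NUP-17d cultures (0.88 to 0.99) than in all DMSO cultures (0.52 to 0.61) and the H2afz to H2afv ratio lower, whereas the other 3 ratios overlapped.

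Per length, the order of the levels was the same in both groups but for 1 exchange. On the scale of FPKM divided by the TMM factor, H3f3a was highest, at 931 to 966 with DMSO and 805 to 863 with NUP-17d. H3f3b came next with DMSO (337 to 347) and H2afz after it (295 to 304), while with NUP-17d H2afz (274 to 284) stood above H3f3b (233 to 240). Neither pair of ranges overlapped. H2afy and H2afx followed, with ranges that overlapped in DMSO (121 to 129 and 119 to 128) and in NUP-17d (127 to 129 and 121 to 129), so these neighbours were not told apart. Lower down came H1f0 (30.3 to 33.2 with DMSO), H2afj (26.3 to 29.7), H2afv (19.7 to 20.1), H1fx (6.36 to 7.503) and H2afy2 (0.258 to 0.587), in the same order with NUP-17d.

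**Figure D3:**
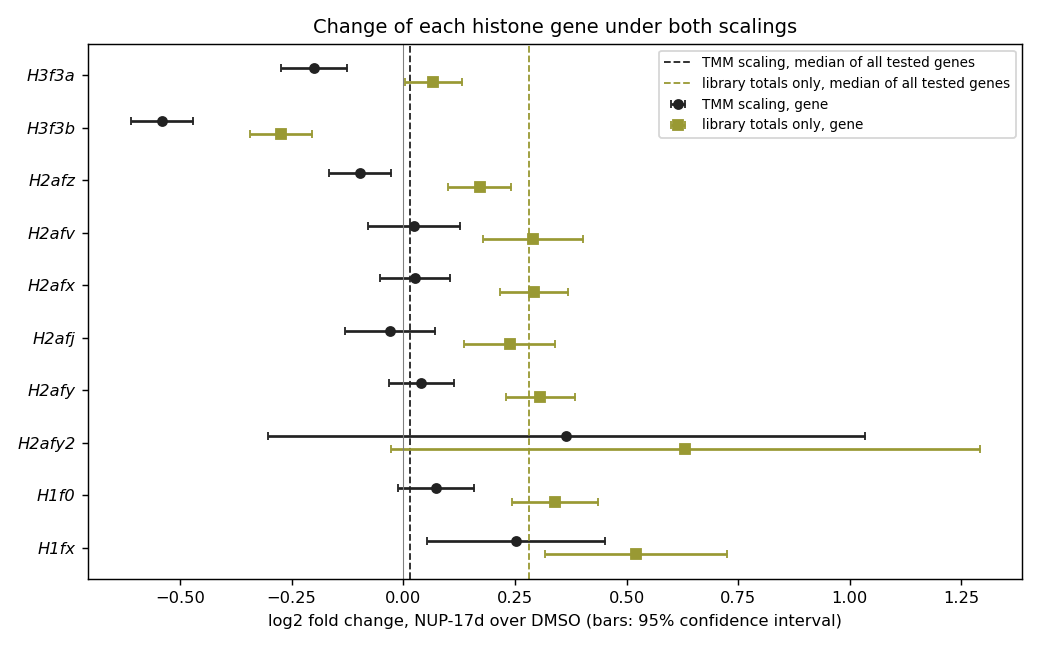
Log2 fold change of each histone gene, NUP-17d over DMSO (x axis), with its 95% CI from edgeR under TMM scaling (black circles) and with library totals only (olive squares); dashed lines mark the median of all tested genes under each (0.014 and 0.28). H3f3b lay below 0 under both, H3f3a, H2afz and H2afj changed sign, and the position of each gene relative to its dashed line was nearly the same.

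The genes that put these histones in place were read from the same analysis as counts, beside 18.9% of all tested genes called lower and 16.4% higher. With totals only, the shares of all tested genes were 5.34% lower and 68.7% higher. Relative to their median, list medians with totals only were -0.083 for H3.3 deposition, -0.090 for H2A.Z exchange and -0.044 for H2A.X partners. For macroH2A partners, linker chaperones and competitors, and S-phase supply they were -0.21, -0.14 and -0.11. Among 8 genes for H3.3 deposition (the HIRA complex with ASF1A, DAXX with ATRX, and DEK), 3 were called lower and 1 higher, with a median log2 fold change of -0.069, but with totals only 5 were called higher and none lower. Ubn2 and Cabin1, subunits of the HIRA complex, had log2 fold changes of -0.30 and -0.27 (adjusted P = 4.23e-07 and 2.89e-06 by edgeR), and Ubn1, the paralog of Ubn2, rose by 0.26 (adjusted P = 3.92e-06 by edgeR). With totals only, Ubn2 and Cabin1 were not called (-0.029 and -7.92e-05) and Ubn1 was called higher at 0.53. Of 16 genes for H2A.Z exchange, 6 were called lower and none higher (median -0.077), yet 12 were called higher with totals only. The 3 with the lowest P values were Anp32e, which removes H2A.Z (-0.18), and the ATPases Ruvbl2 (-0.19) and Ruvbl1 (-0.19), which turned to 0.087, 0.073 and 0.078 with totals only.

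Of 12 tested H2A.X partners, 2 were called lower, the remodeler Smarca5 (-0.25) and the FACT subunit Supt16 (-0.22), and with totals only both turned positive (0.013 and 0.045) and were not called while 10 of the 12 were called higher. The other FACT subunit, Ssrp1, did not pass the test under TMM (-0.073) and was called higher at 0.19 with totals only. Of 4 macroH2A partners, the repair factor Aplf (-0.35) and the remodeler Hells (-0.31) were called lower under TMM and not with totals only (-0.079 and -0.039), and Chaf1a at -0.089 did not pass the test, although with totals only it was called higher at 0.18. Among 9 linker histone chaperones and competitors for their sites, 8 were called lower (median -0.12), among them the chaperones Npm1 (-0.26) and Nasp (-0.27) and the high mobility group gene Hmgb2 (-0.16), but with totals only 7 were called higher and none lower. On that scale Hmgb2 was called higher at 0.10, and Npm1 (0.0051) and Nasp (-0.0068) were not called.

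The replication-coupled side of the histone supply was lower in part. Of 12 genes for S-phase histone supply, 6 were called lower and 1 higher (median -0.100), with 9 called higher and none lower under totals only. Slbp, which binds the stem-loop of cluster histone mRNA, was called lower at -0.26 but was at 0.0040 and not called with totals only, and Lsm10, which helps to form their 3' ends, rose by 0.30 (0.57 with totals only). Among the 4 linker genes of the cluster that passed the filter, Hist1h1c (-0.27), Hist1h1d (-1.56) and Hist1h1e (-0.92) were called lower, the last 2 also with totals only. Of 64 cluster histone genes in the files, 22 were tested and 15 called lower, none higher, with a median of -0.93, and 13 were called lower with totals only. Their counts are uncertain because near-identical copies share reads. Cenpa, the centromeric H3 variant, was called lower under TMM (-0.18, adjusted P = 0.000517 by edgeR) but not with totals only (0.086), and the other 7 variant genes looked for (H1foo, H1fnt, Hils1, H2afb1, H2afb2, H2afb3 and H3f3c) were at 0 in all 6 cultures.

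**Figure D4:**
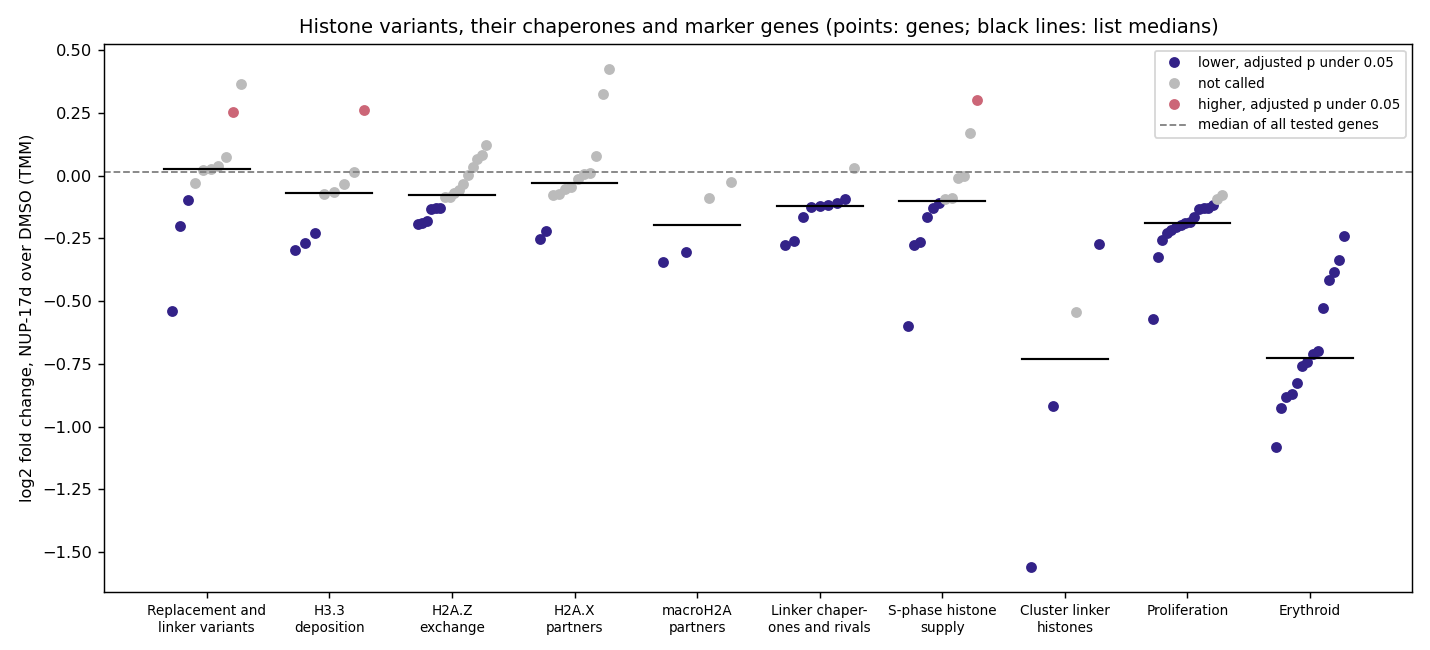
Log2 fold change under TMM, NUP-17d over DMSO (y axis), of each tested gene (points) in lists of histone variants, their partners, proliferation and erythroid markers, colored by the edgeR call, with list medians as black lines and the median of all tested genes (0.014) dashed. The 10 histone variants centered at 0.025, whereas the cluster linker histones (-0.73) and erythroid markers (-0.73) lay far lower. The cluster linker histones include Hist1h1d and Hist1h1e, with mean counts of only 14 and 31.5. Lists with medians between -0.2 and 0 lost most of their lower calls with totals only.

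Markers of cycling cells and of blood lineages were read beside these results, and their part in them was not tested. The shares of all tested genes to set beside these counts were 18.9% lower and 16.4% higher under TMM. With totals only they were 5.34% lower and 68.7% higher. Relative to the median of all tested genes, list medians with totals only were -0.20 for proliferation, -0.74 for erythroid and 0.17 for megakaryocyte markers. Of 16 proliferation markers, 14 were called lower under TMM (median -0.19), but with totals only 8 were called higher and 1 lower, Rrm2. Their summed level per length ranged from 1465 to 1502 with DMSO and from 1231 to 1286 with NUP-17d. Erythroid markers summed to 344714 to 400532 with DMSO and 188343 to 212667 with NUP-17d, Kel (-0.74) and Hbb-bt (-0.92) being among those with the lowest P values. Hemoglobin genes are in this list and weigh heavily in its sum, the mean CPM with DMSO being 21886 for Hbb-bt and 366 for Kel. The median log2 fold change of the list under TMM was -0.73. Megakaryocyte markers were called higher in 6 of 8 and, with totals only, in 8 of 8 (Gp1bb 0.47, Gp1ba 0.26, Vwf 0.21), with sums of 307 to 342 and 356 to 385.

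Among the other lineages, 3 of 10 neutrophil markers were called higher and 1 lower (Ngp 0.17, Ctsg 0.15, Lcn2 0.20), but 9 higher and none lower with totals only, with sums of 3486 to 3655 and 3562 to 3818. Of 9 macrophage markers, 2 were called higher (Cd68 0.30, Mrc1 0.33) and 2 lower, among them Adgre1 (-0.15, and 0.12 with totals only), but with totals only 5 were called higher and none lower, with sums of 288 to 314 and 321 to 363. Of 6 tested mast cell and basophil markers, 3 were called lower and 1 higher (Prss34 -0.30, Mcpt8 -0.39, Hdc -0.20), with sums of 190 to 205 and 164 to 171 and Tpsab1 at 0. With totals only 2 were called higher and none lower, Prss34 at -0.029, Mcpt8 at -0.13 and Hdc at 0.062 not being called. Lymphoid markers were low in all cultures (sums 11.3 to 12.3 and 11.1 to 11.3), with Ighm at 0 and 1 of 7 tested called lower (Cd79a -0.37), but with totals only 2 were called higher and none lower, Cd79a at -0.10 not being called. Stem and progenitor markers had 3 of 8 called higher and 1 lower (Kit 0.19, Procr 0.82, Ly6a -0.32), with sums of 144 to 152 and 139 to 141, but with totals only 7 were called higher and none lower, Ly6a at -0.055 not being called. With totals only, 68.7% of all tested genes were called higher. Relative to the median of all of them, list medians were then 0.0078 for neutrophil and -0.067 for macrophage markers. For mast cell and basophil, lymphoid, and stem and progenitor markers they were -0.22, -0.0062 and 0.063.

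The genes whose profile over the 6 cultures was nearest to that of an H3.3 gene were found by the Euclidean distance between centered log2 CPM values, among 9755 genes whose counts averaged 100 or more. Nearest to H3f3b were Noct (distance 0.060, log2 fold change -0.51), Ppp1cb (0.068, -0.54) and Ap5s1 (0.072, -0.51). Nearest to H3f3a were Rae1 (0.039, -0.20) and the proteasome subunits Psmd6 (0.040, -0.20) and Psma7 (0.042, -0.19). The distances mostly measure a like difference between the 2 groups.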

How the data were processed

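One table per culture was deposited. Its expected count column holds estimated reads per gene as the authors made them, not normalized (27.8% to 28.5% of the values not whole), and its FPKM column holds values that the authors scaled by gene length and library total. The length column is in bases. A gene missing from a table was taken as 0. Submitters' processing notes name mm10, and the aligner, counter and strand setting are not given in the sources used here. The labels describe oligo(dT) enrichment, random priming and single-end DNBseq reads, the study's methods a stranded Illumina kit. The dose is from the study's text.

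Counts were rounded and tested with edgeR 4.0.16 (R 4.3.3; filterByExpr, TMM, quasi-likelihood F test, Benjamini-Hochberg over all tested genes, threshold 0.05). The script was tested on simulated data. Ratios used a pseudocount of 0.5 and, like summed levels, 2-sided exact permutation tests. Alternatives were scaling by totals, by DESeq2 size factors or by upper quartiles, DESeq2 1.42.0, no filter, removal of hemoglobin genes, limma 3.58.1 on log2(FPKM + 1) or log2(FPKM + 0.1) with a mean FPKM of at least 1 or no filter, a replicate block, and leaving out each culture. Fold changes on the log2(FPKM + pseudocount) scale understate the change of low genes.

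Members and gene lists were chosen with earlier results of these data known. Named genes were the 10 members, the 3 lowest P values of each list, and the 3 nearest profiles to each of the members with the lowest P values; 1 gene under this rule is not reported here. Groups came from the sample labels. Libraries of a group differed by more than sampling noise (chi-square over its degrees of freedom 1.84 to 4.59), so each was counted once. Coordinates and promoter windows are from RefSeq (GRCm38.p6), overlaps from GENCODE M21, in which 7 of the 10 members share exonic bases with another annotated gene. Intervals cover the spread between these cultures only.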

Additional observations from a re-analysis of the deposited data

How the results depend on the processing

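H3f3b was called lower in every alternative run. The calls of H3f3a, H2afz and H1fx were not. Correction for composition mattered most: TMM called 4346 genes, 46.5% of them higher, whereas library totals called 9115 (92.8% higher), and limma called 8494 with log2(FPKM + 1), 8480 with log2(FPKM + 0.1) and 8652 without the filter, for 9, 9, 9 and 8 histone genes called in place of 4. With upper quartiles 54.9% of calls were higher, and H2afz (-0.072) was not called. DESeq2 called 2971 genes and 3 histone genes, all lower. Leaving out a culture gave 3713 to 4008 genes and 2 to 3 histone genes.

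Some log2 fold changes turned sign. With totals H2afz was 0.17, H2afj 0.24 and H3f3a 0.068, with limma and log2(FPKM + 1), filtered or not, 0.17, 0.23 and 0.072, and with log2(FPKM + 0.1) 0.17, 0.24 and 0.072. Leaving out a culture moved H2afj from -0.071 to 0.018 (highest without DMSO culture 1, and 0.00044 without NUP-17d culture 1), H2afx from -0.0043 to 0.060 and H2afv from -0.0039 to 0.039 (both lowest without NUP-17d culture 3), none of which was called. With FPKM as deposited the summed log2 differences were -0.011 for H3.3, 0.18 for H2A.Z and 0.31 for macroH2A. Total RNA per cell was not measured, so the scalings cannot be told apart by these data.

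Same-numbered cultures of the 2 groups had correlations of deviations between 0.023 and 0.11, other pairs between -0.11 and 0.083, and 4 of 6 libraries correlated best with their own number, so the numbers were not taken to pair the cultures. With the replicate block 4543 genes were called, 4329 of them shared with the analysis without it, and the same count of histone genes, 4. Depth limits H2afy2, whose mean count was 17.3. Leaving out a culture moved its log2 fold change from 0.12 to 0.83, that of H1f0 from 0.037 to 0.10 and that of H2afy from 0.021 to 0.069, with none called.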
